A study of Triticum turgidum subsp. durum with 12 samples.

Results

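The genes described here are the photoperiod genes *PPD1* and *GIGANTEA* of durum wheat, each present as an A and a B homeolog. They were chosen by gene identifier and are *PPD-A1* (TraesCS2A01G081900), *PPD-B1* (TraesCSU01G196100), *GIGANTEA-A* (TraesCS3A01G116300) and *GIGANTEA-B* (TraesCS3B01G135400), 4 of the 72120 features in the count table. All 4 had counts in each of the 12 libraries, so no member was lost to a filter. The identifiers place *PPD-A1* and the *GIGANTEA* homeologs on chromosomes 2A, 3A and 3B of the IWGSC RefSeq v1.0 assembly and *PPD-B1* on sequence without a chromosome. The libraries came from leaves of 3 genotypes of the tetraploid variety Kronos, with 4 libraries in each: WT, *phyB*-null and *phyC*-null. Each mutant combines null mutations, made by EMS mutagenesis, in the A and B homeologs of *PHYTOCHROME B* or *PHYTOCHROME C*, and was backcrossed to the Kronos parent that served as the WT for both. All plants, WT included, were spring type and carried the photoperiod-insensitive *Ppd-A1a* allele, which has a deletion in its promoter, together with *Ppd-B1b*. Plants were 8 weeks old and grown in short days of 8 h light and 16 h dark at 20 °C by day and 18 °C by night. Light intensity was about 260 μM m⁻² s⁻¹ for all of them. The last fully expanded leaf (the third leaf, by another label) was taken 4 h after the lights came on. At that age WT apices had begun to form a spike and mutant apices were vegetative, so the genotype and the stage of development cannot be told apart.

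Phytochromes are red and far-red light receptors, and loss of either PHYB or PHYC delays heading of wheat when days are long. PPD1 is a pseudo-response regulator, a protein related to those of the circadian clock, that promotes flowering in temperate cereals by raising expression of the florigen gene *FT1*; its rice counterpart, PRR37, represses flowering in long days. In *Brachypodium* the clock protein ELF3 binds the *PPD1* promoter and represses it, and the deletion in *Ppd-A1a* removes that binding site. GIGANTEA is a large clock-associated protein which, in Arabidopsis, acts with the blue light receptor FKF1 to relieve repression of *CONSTANS* by CDF proteins, and in rice acts upstream of the *CONSTANS* counterpart *Hd1*. Transcripts of *GIGANTEA* cycle over the day, and these samples give a single hour of it.

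Libraries held 37365465 to 58944135 counted reads. The scaling factor of the trimmed mean of M-values (TMM), which corrects a library for the share of reads taken by a few abundant genes, was 0.761 for *phyC*-null replicate 3 and between 0.875 and 1.12 for the other 11 libraries. That library also had the most reads, so levels are given below as deposited TPM (transcript abundance scaled by gene length and library total, but not by TMM) and, where the scales differ, as CPM (read counts scaled by library total and TMM factor, not by length). As a check of the labelled tissue, 8 photosynthesis genes (*RbcS*, *Cab* and Rubisco activase) summed to between 7112 and 27604 TPM per library, and 6 floral organ genes to between 9.14 and 21.4 TPM. Of the 8 photosynthesis genes edgeR called 1, *Rubisco activase (4B)* (TraesCS4B01G140200), with *phyB*-null 4.55-fold above WT (adjusted p = 0.000271), a call lost with all 12 libraries in one fit (0.0189) and with limma (0.0242 and 0.0188). The 3 *Cab* genes had log2 differences of 2.23 to 2.99 for WT over *phyB*-null and did not pass (adjusted p 0.0177 to 0.0466). Against *phyC*-null 0 of the 8 passed by edgeR and 1 by DESeq2. There *Rubisco activase (4B)* was 4.25-fold above WT (adjusted p = 0.101), and the *Cab* log2 differences for WT over *phyC*-null were 2.85, -1.21 and -0.60. All 8 names come from the study's table of genes that it called in these or in long-day libraries. Levels of *PHYB* and *PHYC* were not analysed here, since the tables used do not name their identifiers.

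*PPD-B1* transcript levels were far lower in both mutants than in WT. In the 4 WT libraries *PPD-B1* stood at 9.75, 9.54, 11.5 and 10.03 TPM (10.2 ± 0.877, mean ± SD, n = 4). Levels in *phyB*-null were 0.581, 0.336, 0.232 and 0.459 TPM, and in *phyC*-null 1.40, 1.49, 0.708 and 0.505 TPM. The highest mutant library was thus below every WT library by a wide margin, on 85 to 177 reads in *phyB*-null and 206 to 541 in *phyC*-null against 3007 to 4147 in WT. Each test reported below for a single gene is edgeR's quasi-likelihood test on counts over the 8 libraries of a comparison, with a gene called at a Benjamini-Hochberg adjusted p below 0.01 over all 72120 features. By this test *PPD-B1* in WT exceeded that in *phyB*-null 23.9-fold (95% interval 17.4 to 32.8, adjusted p = 6.25e-08). Against *phyC*-null the excess was 9.41-fold (95% interval 6.06 to 14.6, adjusted p = 0.000128). In these whole-leaf samples, fewer cells that express a gene and less transcript per cell cannot be told apart.

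Between the mutants, *PPD-B1* stood 2.51-fold above the *phyB*-null level in *phyC*-null, a log2 difference of -1.33 for *phyB*-null over *phyC*-null (standard error 0.34). The groups overlapped because *phyC*-null replicate 4 was within the range of *phyB*-null. On TMM-scaled CPM the *phyC*-null libraries held 10.3, 11.7, 7.98 and 3.74 CPM, against 1.96 to 4.42 CPM in *phyB*-null. The test did not pass (adjusted p = 0.0341). Without *phyC*-null replicate 4 the log2 difference was -1.57 and passed (adjusted p = 0.0072), and it also passed by DESeq2 (adjusted p = 0.0036).

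*PPD-A1*, the homeolog with the promoter deletion, showed a smaller difference, and mainly in *phyB*-null. WT libraries held 4.84, 5.54, 4.21 and 4.69 TPM (4.82 ± 0.549, n = 4). Those of *phyB*-null held 2.59, 2.24, 1.96 and 3.74 TPM (2.63 ± 0.780, n = 4), all below WT, with replicate 4 nearest to it. WT exceeded *phyB*-null 1.70-fold (95% interval 1.34 to 2.17, adjusted p = 0.00443). This call was close to the threshold: leaving out WT replicate 1, 2 or 4 gave adjusted p values of 0.0116, 0.0152 and 0.0109, and leaving out *phyB*-null replicate 3 gave 0.0155, with log2 differences between 0.66 and 0.79. Without *phyB*-null replicate 4 the log2 difference was larger, 0.95 (adjusted p = 0.000523).

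In *phyC*-null, *PPD-A1* stood at 4.87, 4.02, 3.28 and 4.26 TPM (4.11 ± 0.658, n = 4), overlapping WT. The fold change was 1.10 (WT over *phyC*-null, 95% interval 0.915 to 1.32, adjusted p = 0.604), so a level up to 1.32-fold higher in WT is inside the interval. For *phyB*-null over *phyC*-null the log2 difference was -0.62 (standard error 0.17, adjusted p = 0.0484), which did not pass. On the TPM scale these mutants overlapped for *PPD-A1*; on TMM-scaled CPM they did not, with 15.7 to 28.2 CPM in *phyB*-null and 29.7 to 34.9 CPM in *phyC*-null. The plot of levels by library shows both scales.

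**Figure D1:**
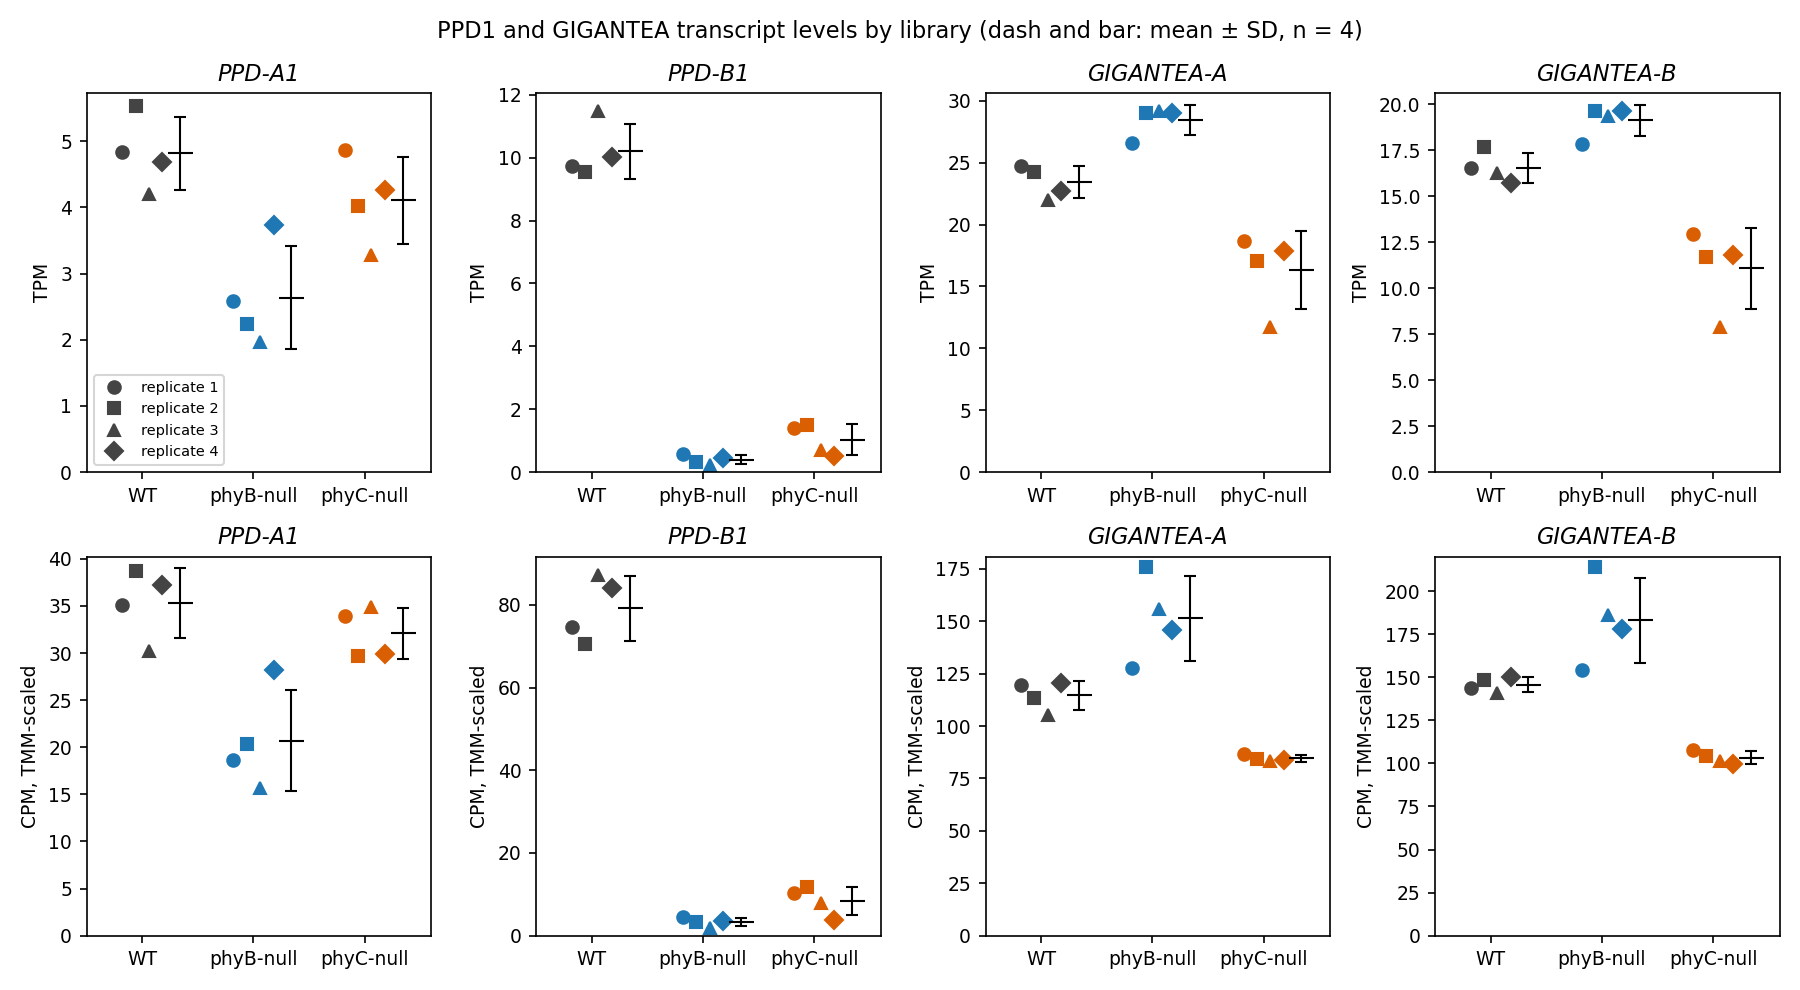
Transcript levels of *PPD-A1*, *PPD-B1*, *GIGANTEA-A* and *GIGANTEA-B* in each library, as deposited TPM (top row) and TMM-scaled CPM (bottom row), by genotype. Marker shapes give the replicate number, and the dash with its bar is the mean ± SD (n = 4). *PPD-B1* is above 9.5 TPM in all WT libraries and below 1.5 TPM in all mutant libraries, while for *GIGANTEA* the *phyB*-null libraries are highest and the *phyC*-null libraries lowest on both scales.

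The unequal change left *PPD1* with the opposite homeolog balance in the mutants. Because TPM is scaled by length, the homeologs can be compared within a library. In WT the A homeolog made up 33.2%, 36.7%, 26.8% and 31.9% of the *PPD1* transcript sum, so *PPD-B1* was 2.12-fold above *PPD-A1* on average. These shares count reads unique to each model, and whether Kronos has further *PPD-B1* copies that are collapsed or missing in the reference cannot be told from the counts. In *phyB*-null the A share was 81.7%, 86.9%, 89.4% and 89.1%. In *phyC*-null it was 77.7%, 72.9%, 82.2% and 89.4%. No mutant library fell below 72.9% and no WT library rose above 36.7%, so *PPD-A1* was the more abundant homeolog in every mutant library.

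The log2 ratio of A to B was -1.08 ± 0.28 in WT, 2.75 ± 0.42 in *phyB*-null and 2.13 ± 0.71 in *phyC*-null (mean ± SD, n = 4). An exact two-sided permutation test over the 8 libraries gave p = 0.0286 for WT against each mutant, the smallest p that 4 against 4 libraries allow, and p = 0.0857 after adjustment over the 6 ratio tests on *PPD1* and *GIGANTEA*. Neither thus passed an adjusted p of 0.05, although both were at the smallest p. The ratio of *phyB*-null to *phyC*-null differed by 0.62 on the log2 scale, within the spread of the libraries (exact permutation p = 0.229, adjusted p = 0.274).

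Summed over the homeologs, *PPD1* reached 15.0 ± 0.492 TPM for WT, against 3.04 ± 0.873 TPM for *phyB*-null and 5.13 ± 0.978 for *phyC*-null plants (n = 4 each). The WT sum varied least, between 14.6 and 15.7 TPM, although its homeologs each varied more. WT was 5.09-fold above *phyB*-null and 2.97-fold above *phyC*-null (exact permutation p = 0.0286 for each, adjusted over 6 tests p = 0.0343). Of the difference in the sum, *PPD-B1* made up 81.8% for *phyB*-null and 92.8% for *phyC*-null. The mutants' sums differed by 0.78 on the log2 scale and overlapped (exact permutation p = 0.0571, adjusted p = 0.0571).

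**Figure D2:**
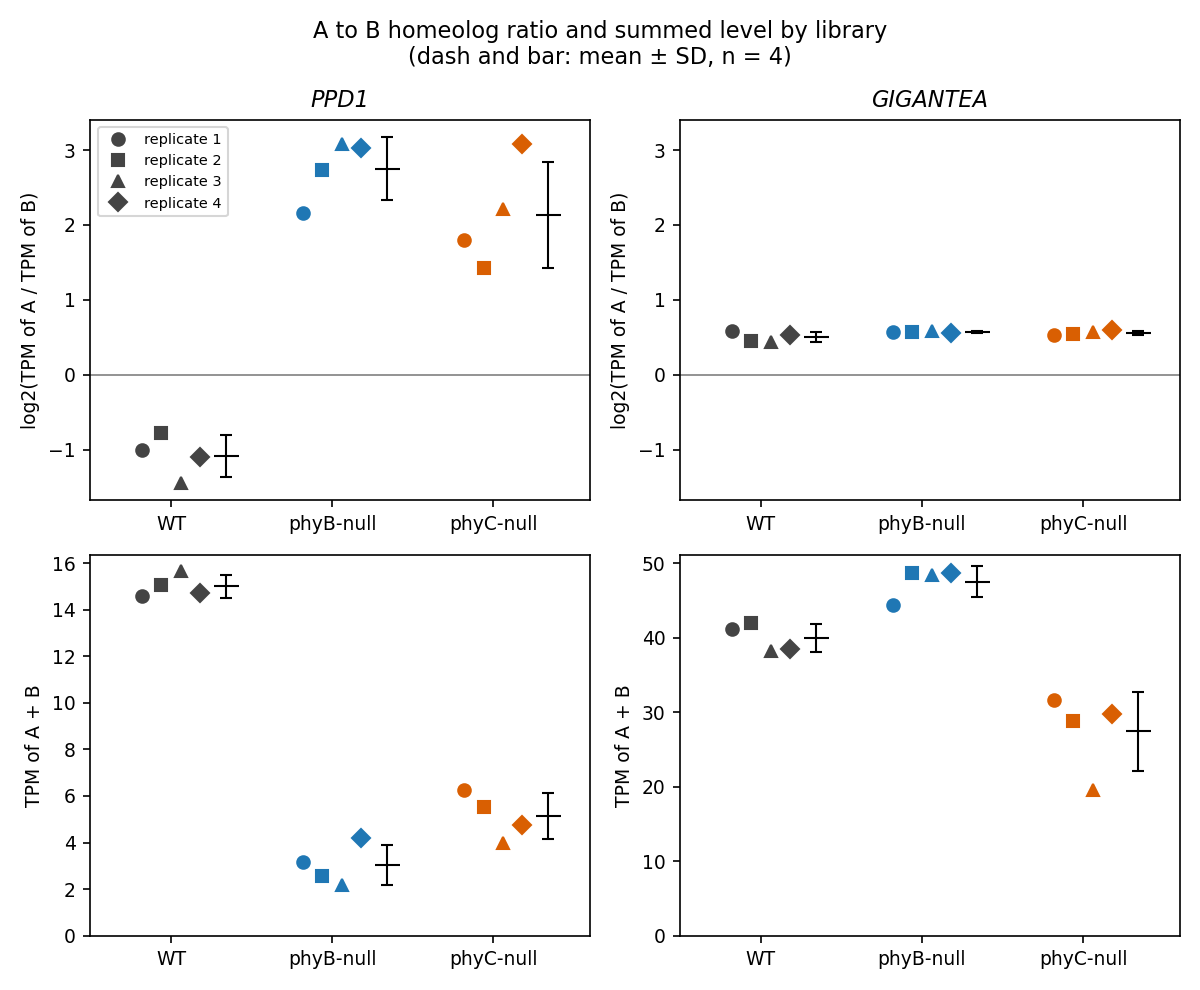
Log2 ratio of A to B homeolog TPM (top row) and the TPM of both homeologs added (bottom row) in each library, for *PPD1* (left) and *GIGANTEA* (right). Marker shapes give the replicate number, and the dash with its bar is the mean ± SD (n = 4). The *PPD1* ratio lies below 0 in the 4 WT libraries and above 1.4 in the 8 mutant libraries, whereas the *GIGANTEA* ratio lies between 0.43 and 0.60 in all 12.

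A truncated pseudo-response regulator model on sequence without a chromosome (TraesCSU01G199500) was examined beside *PPD-B1*, because reads of near-identical copies can be divided between models or lost when only uniquely mapped reads are counted. It held 10, 15, 17 and 20 reads in WT, 7, 1, 1 and 3 in *phyB*-null, and 4, 0, 3 and 1 in *phyC*-null. WT libraries were thus above all mutant libraries here too, but the differences did not pass by edgeR (log2 2.27, adjusted p = 0.0169 against *phyB*-null, and log2 3.05, adjusted p = 0.0347 against *phyC*-null). DESeq2 called both (adjusted p = 0.0040 and 0.00066), and the first also passed in edgeR without *phyB*-null replicate 1 (adjusted p = 0.00365). It never exceeded 0.0979 TPM, and adding it to *PPD-B1* changed no call on the *PPD1* sum. The *PPD1* ratio tests did not pass an adjusted p of 0.05 with or without it.

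*GIGANTEA* transcript levels differed between the mutants, with WT between them. *GIGANTEA-A* stood at 24.7, 24.3, 22.0 and 22.7 TPM in WT (23.4 ± 1.29, n = 4). Levels of 26.6, 29.0, 29.1 and 29.0 TPM were found for *phyB*-null (28.4 ± 1.24), and for *phyC*-null 18.7, 17.1, 11.7 and 17.9 TPM (16.3 ± 3.15). The 3 genotypes did not overlap, in the order *phyB*-null, WT, *phyC*-null. *GIGANTEA-B* gave the same order. Its WT libraries held 16.5, 17.7, 16.3 and 15.7 TPM, those of *phyB*-null 17.9, 19.6, 19.4 and 19.7 TPM, and those of *phyC*-null 12.9, 11.7, 7.91 and 11.8 TPM, again without overlap.

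The low value of *phyC*-null replicate 3 for both *GIGANTEA* homeologs belongs to the TPM scale. On TMM-scaled CPM *GIGANTEA-A* was at 86.9, 84.5, 83.4 and 83.8 CPM in *phyC*-null, and *GIGANTEA-B* at 108, 104, 101 and 99.6 CPM, so that this library sat with the other *phyC*-null libraries. For *phyB*-null the scales act in the other direction, with *GIGANTEA-A* at 128, 176, 156 and 146 CPM and a wider spread than in TPM. WT was at 120, 113, 105 and 120 CPM, and the order of the genotypes without overlap held on both scales.

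By the test of *phyB*-null over *phyC*-null, *GIGANTEA-A* was 1.81-fold higher (95% interval 1.47 to 2.22, adjusted p = 0.0032) and *GIGANTEA-B* 1.79-fold higher (95% interval 1.45 to 2.21, adjusted p = 0.00412). The size of this difference varied little over the libraries left out, from 0.78 to 0.92 on the log2 scale for *GIGANTEA-A* and from 0.76 to 0.91 for *GIGANTEA-B*. Its call did not always hold. For *GIGANTEA-A* the adjusted p was 0.0107, 0.0175 and 0.012 without *phyB*-null replicate 2, 3 or 4, and 0.01001 and 0.0137 without *phyC*-null replicate 1 or 2. For *GIGANTEA-B* it was 0.0135, 0.0211 and 0.0153 without those *phyB*-null replicates, and 0.0114, 0.0161 and 0.0124 without *phyC*-null replicate 1, 2 or 4. Without *phyC*-null replicate 3, the library with the low TMM factor, both calls held.

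Neither *GIGANTEA* homeolog passed against WT. For WT over *phyB*-null the log2 difference was -0.40 for *GIGANTEA-A* (standard error 0.11, adjusted p = 0.0234) and -0.33 for *GIGANTEA-B* (standard error 0.11, adjusted p = 0.0525). For WT over *phyC*-null it was 0.44 for *GIGANTEA-A* (standard error 0.12, adjusted p = 0.0716) and 0.50 for *GIGANTEA-B* (standard error 0.12, adjusted p = 0.0455). DESeq2 called 3 of these 4 differences: *GIGANTEA-A* against *phyB*-null (adjusted p = 0.00604), and *GIGANTEA-A* and *GIGANTEA-B* against *phyC*-null (adjusted p = 2.84e-05 and 5.17e-08). The first of them also passed in edgeR without *phyB*-null replicate 1 (log2 -0.46, adjusted p = 0.00823). Summed over homeologs, the exact permutation test gave p = 0.0286 and an adjusted p of 0.0343 for each of the 3 comparisons, with sums of 40.0 ± 1.90 TPM (WT), 47.6 ± 2.09 TPM (*phyB*-null) and 27.4 ± 5.34 TPM (*phyC*-null), n = 4 each.

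Unlike *PPD1*, the *GIGANTEA* homeologs kept a nearly fixed balance. The A share lay between 57.4% and 59.9% in WT, 59.6% and 60.1% in *phyB*-null, and 59.1% and 60.2% in *phyC*-null. The log2 ratios of A to B, 0.50 ± 0.07, 0.57 ± 0.01 and 0.56 ± 0.03, gave exact permutation p values of 0.114, 0.171 and 0.514 (adjusted p = 0.229, 0.257 and 0.514) for WT against *phyB*-null, WT against *phyC*-null and the mutants against each other. The 3 differences in log2 ratio were at most 0.07 in size. Which homeolog leads depends on the gene models: per length *GIGANTEA-A* was higher, but in reads WT held 0.787 of *GIGANTEA-A* for each of *GIGANTEA-B*, as the model of *GIGANTEA-B* is 1.80 times as long by the ratio of counts to TPM. For *PPD1* the lengths differed by 1.06 and the choice does not matter.

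Floral organ markers were checked beside *GIGANTEA*, since their summed level fell in the same order of genotypes: 14.6 to 21.4 TPM for *phyB*-null, 11.0 to 15.8 TPM for WT and 9.14 to 10.3 TPM for *phyC*-null. Of the 6 genes, *TaPI-A1* and *TaPI-B1* made up most of the sum, and *TaSTK-A2* (TraesCS1A01G262700) alone was called by edgeR. It stood at 1.12 TPM in *phyB*-null, 15.2-fold above WT (adjusted p = 2.57e-05) and 6.80-fold above *phyC*-null (adjusted p = 0.00177). *TaPI-A1* and *TaPI-B1* in *phyB*-null were 1.83-fold and 1.64-fold above *phyC*-null but did not pass (adjusted p = 0.0119 and 0.0499). DESeq2 called 2 of the 6 for WT against *phyB*-null, 0 against *phyC*-null and 3 between the mutants. *TaAG-A2*, a gene of stamens and carpels, had 74 reads (0.944 TPM) in *phyB*-null replicate 1 and 0 to 12 reads in the other 11 libraries. Their part in the *GIGANTEA* result was not tested.

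Set against all features, the 4 genes were affected differently in each comparison. For WT against *phyB*-null, 2 of the 4 were called, both higher in WT, where 11.9% of features were called (5.95% higher and 5.97% lower in WT). Against *phyC*-null 1 of 4 was called, where 0.796% of features were (0.374% higher and 0.422% lower in WT). Between the mutants 2 of 4 were called, both higher in *phyB*-null, where 3.41% of features were (1.4% higher and 2.02% lower in *phyB*-null). On TMM-scaled CPM the genotypes did not overlap for 4 of the 4 genes in the comparison with *phyB*-null (24.1% of all features), for 3 against *phyC*-null (9.9%) and for 3 between the mutants (16.2%). The comparisons with WT share the same WT libraries. For the DESeq2 counts given here, DESeq2 called 12446 of 60421 features with an adjusted p for WT against *phyB*-null. It called 2468 of 59127 against *phyC*-null and 6039 of 60539 between the mutants. The share of all features at an unadjusted p below 0.05 was not computed.

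**Figure D3:**
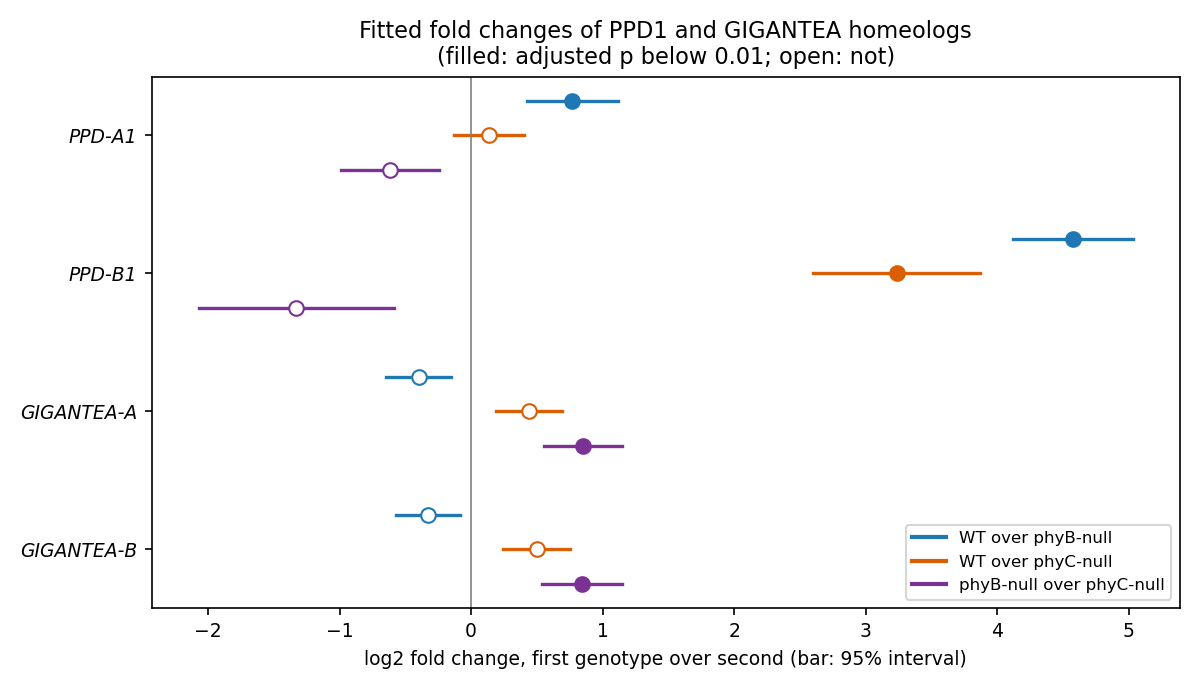
Log2 fold changes of the 4 genes from edgeR's quasi-likelihood fit in the 3 comparisons, first genotype over second, with 95% intervals. Filled points passed an adjusted p of 0.01 and open points did not. *PPD-B1* reaches 4.58 and 3.23 over the mutants, and the *GIGANTEA* homeologs pass only between the mutants, at 0.85 and 0.84.

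Related genes of the clock and photoperiod pathway were taken from lists, most of whose names come from the study's table of genes that it called in these or in long-day libraries: 6 of 7 other pseudo-response regulators, 5 of 8 other clock genes and 3 of 10 *CONSTANS*-like and *CDF* genes. Their counts are therefore not independent evidence. Among the 7 other pseudo-response regulators, 4 were higher and 3 lower in WT when compared with *phyB*-null, with a median log2 difference of 0.73 beside -0.0026 over all features. Against *phyC*-null 0 of 7 passed by edgeR, with 4 of 7 at an unadjusted p below 0.05 and 1 called by DESeq2, and between the mutants 4 of 7 passed. *APRR5-like (3A)* (TraesCS3A01G354000) had the largest excess in WT of the list, at 6.01, 0.978 and 3.63 TPM in WT, *phyB*-null and *phyC*-null (WT 5.72-fold over *phyB*-null, adjusted p = 1e-05). Its level in *phyB*-null was also below that of *phyC*-null, by 1.93 on the log2 scale (adjusted p = 0.0020), a call lost without *phyB*-null replicate 3 or 4 (adjusted p = 0.0111 and 0.0105). *TOC1/PRR1 (6B)* (TraesCS6B01G253900), the counterpart of an evening gene of the Arabidopsis clock, went the other way, at 3.06, 14.1 and 2.62 TPM, with *phyB*-null 5.14-fold above WT (adjusted p = 4.83e-05) and 5.66-fold above *phyC*-null (adjusted p = 0.000222). The *APRR3-like* homeologs on 4B (TraesCS4B01G115100) and 4A (TraesCS4A01G200200) likewise peaked in *phyB*-null, 2.97-fold and 2.24-fold above WT and 2.54-fold and 2.10-fold above *phyC*-null (adjusted p at most 0.00074).

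Among the 8 other clock genes, 4 were higher and 2 lower in WT when set against *phyB*-null. Against *phyC*-null 0 of 8 passed by edgeR, with 4 of 8 at an unadjusted p below 0.05 and 3 called by DESeq2, and between the mutants 1 was higher and 3 lower in *phyB*-null. The morning-expressed MYB genes *LHY/CCA1 (7A)* (TraesCS7A01G299400) and *LHY/CCA1 (7B)* (TraesCS7B01G188000) in WT exceeded *phyB*-null 6.76-fold and 7.97-fold (adjusted p = 4.19e-07 and 1.77e-07). The *phyC*-null level was also above that of *phyB*-null, 4.50-fold and 5.05-fold (adjusted p = 0.000218 and 0.000145). The *LHY-annotated MYB (6B)* (TraesCS6B01G288500), at 1.22 TPM or less in each library, was 3.41-fold higher in *phyC*-null (adjusted p = 0.00429), a call lost in 6 of 8 fits with a library left out (adjusted p up to 0.0162). *LUX (3A)* (TraesCS3A01G361800), a partner of ELF3 in the evening complex, in *phyB*-null was 4.61-fold above WT (adjusted p = 4e-06) and 2.16-fold above *phyC*-null (adjusted p = 0.00371, lost without *phyB*-null replicate 1, 3 or 4 or *phyC*-null replicate 2, at up to 0.0165). *FKF1 (4A)* (TraesCS4A01G164000), whose Arabidopsis counterpart binds GIGANTEA, exceeded WT 7.08-fold in *phyB*-null (adjusted p = 1.53e-06), at 0.950, 6.16 and 2.69 TPM in WT, *phyB*-null and *phyC*-null.

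The *ELF3* homeologs, which encode the repressor known to act on *PPD1*, did not pass in any of the 3 comparisons, nor in any of the 18 alternative fits of each. *ELF3-A* (TraesCS1A01G443200) was at 10.2 ± 0.769, 10.5 ± 0.331 and 8.63 ± 0.895 TPM, and *ELF3-B* (TraesCS1B01G477400) at 14.2 ± 0.660, 15.6 ± 1.02 and 13.7 ± 1.98 TPM in WT, *phyB*-null and *phyC*-null (n = 4 each). Their log2 differences for WT over *phyB*-null were -0.15 (adjusted p = 0.291) and -0.25 (adjusted p = 0.082). For WT over *phyC*-null they were 0.14 (adjusted p = 0.581) and -0.05 (adjusted p = 0.869). The differences for *phyB*-null over *phyC*-null were 0.30 (adjusted p = 0.150) and 0.22 (adjusted p = 0.264). Whether ELF3 has a part in the *PPD1* result was not tested.

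Among 10 *CONSTANS*-like and *CDF* genes, which lie downstream of GIGANTEA in other species, 5 were higher and 1 lower in WT when compared with *phyB*-null. *CDF1c-A* (TraesCS2A01G100800) and *CDF1c-B* (TraesCS2B01G118000) stood 3.57-fold and 3.49-fold higher in WT, *CDF1d/e-B* (TraesCS4B01G286400) 3.03-fold and *CONSTANS-like (1A)* (TraesCS1A01G220300) 3.16-fold higher, with adjusted p at most 3.2e-05. Against *phyC*-null *CDF1d/e-B* was the 1 gene of 10 that passed by edgeR, at 1.77-fold (adjusted p = 0.00324), with 7 of 10 at an unadjusted p below 0.05 and 6 called by DESeq2. The edgeR call was lost without WT replicate 1, 2 or 4 or *phyC*-null replicate 1 or 2 (adjusted p 0.0118 to 0.0157), with library size alone (0.0105) and with limma (0.0261 and 0.0432). Between the mutants *CDF1c-A* and *CDF1d/e-B* were 2.33-fold and 1.70-fold higher in *phyC*-null (adjusted p = 0.00191 and 0.00659). The first call was lost without *phyB*-null replicate 3 (adjusted p = 0.0111), and the second in 6 of 8 fits with a library left out (adjusted p up to 0.0331). The *GIGANTEA* homeologs and *CDF1c-A* thus passed in opposite directions in this comparison.

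**Figure D4:**
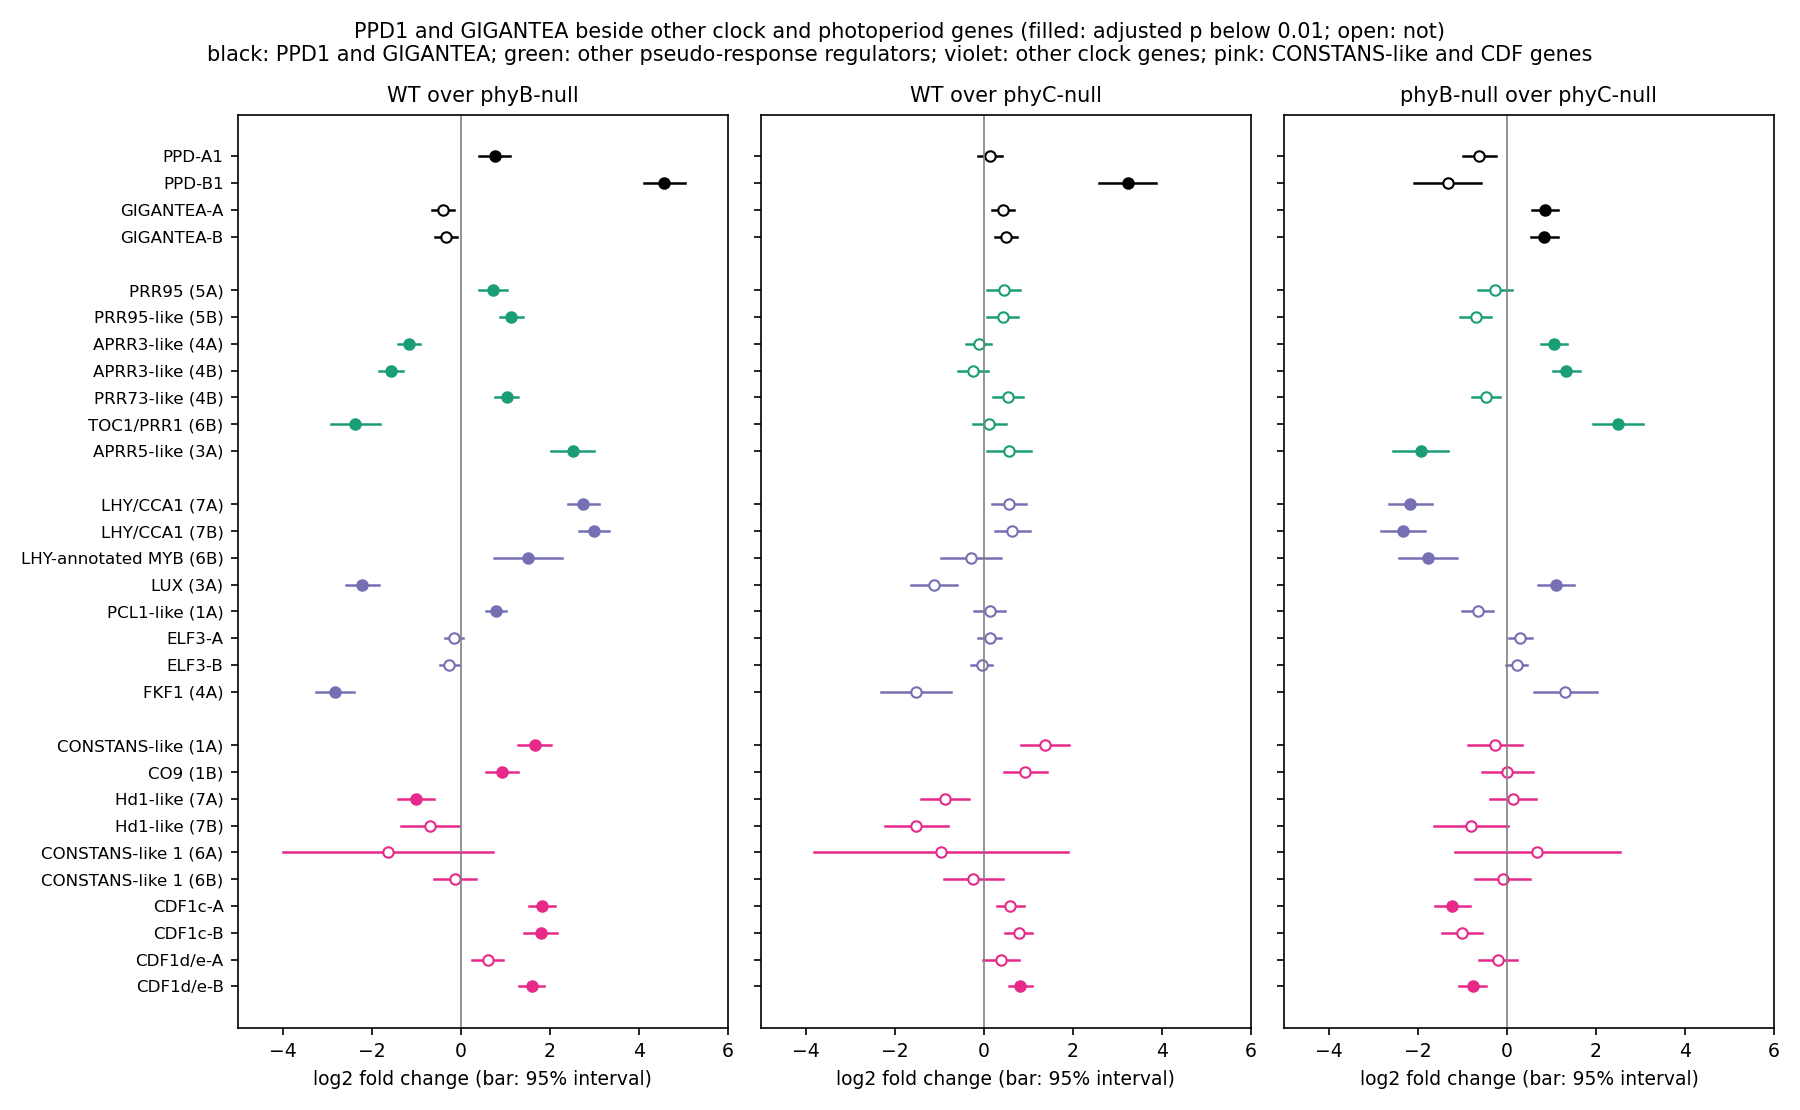
Log2 fold changes with 95% intervals of *PPD1* and *GIGANTEA* (black), other pseudo-response regulators (green), other clock genes (violet) and *CONSTANS*-like and *CDF* genes (pink) in the 3 comparisons, first genotype over second. Filled points passed an adjusted p of 0.01. *PPD-B1* lies farthest from 0 in both comparisons with WT, the *ELF3* homeologs stay close to 0, and the clock genes spread to both sides in *phyB*-null.

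The florigen and *VRN1* genes, like *PPD1*, promote flowering. Their list was chosen by the study on these and long-day libraries, and all 4 of its genes were higher in WT than in either mutant. *FT-A1* (TraesCS7A01G115400) and *FT-B1* (TraesCS7B01G013100) had 259 and 510 reads over the WT libraries and 0 in *phyB*-null, so WT was at least 83.8-fold and 165-fold higher, taking 3 reads over the group as the floor. With 2 reads each in *phyC*-null, the ratios were 147 (95% exact counting interval 40.4 to 1224) and 290.3 (95% exact counting interval 80.0 to 2404). *VRN-B1* (TraesCS5B01G396600) in WT exceeded *phyB*-null 66.9-fold and *phyC*-null 47.7-fold (adjusted p = 1.37e-07 and 1.21e-05), and *VRN-A1* (TraesCS5A01G391700) did so 2.86-fold and 2.46-fold (adjusted p = 5.42e-07 and 0.00143). These intervals and the floor cover counting error only. Between the mutants 0 of the 4 were called by edgeR or DESeq2, and 0 had an unadjusted p below 0.05.

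Patterns most like those of the members were sought by Pearson's r over the 12 libraries among 36748 other features with a mean of at least 1 CPM. These values are descriptions, as libraries of a genotype share much of their pattern. For *GIGANTEA-A* the closest feature was *GIGANTEA-B* (r = 0.99), and after each genotype was centred on its own mean the r between them was 0.937. For *PPD-B1* the closest were TraesCS7B01G056700 (r = 0.99, centred 0.801), TraesCSU01G007900 (r = 0.981, centred 0.659; annotated as a disease resistance protein) and TraesCS5A01G268400 (r = 0.974, centred 0.519; annotated as a dihydroflavonol reductase). For *PPD-A1* they were TraesCS7A01G171900 (r = 0.955, centred 0.807), TraesCS4B01G305900 (r = 0.949, centred 0.782) and TraesCS5A01G338300 (r = 0.945, centred 0.777). After its homeolog, *GIGANTEA-A* was followed by TraesCS7B01G205500 (r = 0.954, centred 0.469) and TraesCS7B01G188700 (r = 0.953, centred 0.663), and *GIGANTEA-B* by TraesCS6B01G097800LC (r = 0.976, centred 0.793) and TraesCS1A01G304400 (r = 0.953, centred 0.62).

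The *PPD1* homeologs were far less alike than those of *GIGANTEA*. Their r was 0.72 over the 12 libraries and 0.298 within genotypes, and *PPD-A1* ranked 2865 among the features most like *PPD-B1*. In *phyB*-null, for example, replicate 4 had the highest *PPD-A1* level, whereas replicate 1 had the highest *PPD-B1* level. In *phyC*-null, replicate 1 was highest for *PPD-A1* in TPM and replicate 2 for *PPD-B1*.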

How the data were processed

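RNA from leaves of 12 plants, 4 per genotype, was sequenced by the authors as 100 bp single reads on 2 lanes, with 2 replicates of each genotype per lane (which ones is not given). GSNAP placed the reads on the IWGSC RefSeq v1.0 assembly and HTSeq counted the uniquely mapped ones per gene model (tool versions not given in the sources used here). The deposited table of raw counts keeps models with at least 3 counts in a library, and holds 1446 rows for transcript contigs beside the gene models. The deposited TPM values were made by the authors from all gene models, with lengths not described. The strand setting of the counting is not given.

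Counts were tested per pair of genotypes (8 libraries) with edgeR 4.0.16 (TMM, quasi-likelihood F test, no filter, Benjamini-Hochberg over 72120 features, called at adjusted p below 0.01) in R 4.3.3. Homeolog ratios and sums were compared on log2 TPM by exact permutation tests (scipy 1.17.1), adjusted over 6 tests. Alternatives used DESeq2 1.42.0, limma 3.58.1 on log2(TPM + 1) and log2(TPM + 0.1), other scalings and filters, and each library left out. The edgeR test was also run on simulated data drawn from these counts, with 200 of 72120 features changed. It found 42% of the 2-fold changes and 96% of the 4-fold changes for WT against *phyB*-null. Against *phyC*-null it found 15% and 91%, and between the mutants 16% and 89%. False calls, of features left unchanged, numbered 5 for WT against *phyB*-null, 3 against *phyC*-null and 7 between the mutants.

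The genes and lists were chosen with earlier results of these data known. Genes named are the *PPD1* and *GIGANTEA* homeologs, the truncated model, up to 4 called genes of each list with the largest change per comparison, and the 3 features most like each member. The *ELF3* homeologs, *TaAG-A2* and the *TaPI* homeologs are named in addition, and were chosen after their values were seen. Names come from the study's annotation, as the reference table matched 0 of the identifiers. Replicates were individual plants, per the study's methods, and the least different pair of libraries in a genotype differed by 9.89 times the variance of sampling noise.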

Additional observations from a re-analysis of the deposited data

Results flagged for a closer look

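*GIGANTEA* in *phyB*-null had a library apart from the others: replicate 1 lay below the other 3 by 0.954 of the range of the group in *GIGANTEA-A* TPM (26.6 against 29.0 to 29.1 TPM), by 0.837 in *GIGANTEA-B* TPM (17.9 against 19.4 to 19.7 TPM) and by 0.959 in the log2 sum of both. These 3 were marked among 42 groups of 4 libraries examined, where chance marks about 1 in 20, and they rest on the same library and gene pair. Replicate 1 was still above every WT library. The gap belongs to the TPM scale. On TMM-scaled CPM replicate 1 was still the lowest *phyB*-null library, but the other 3 were spread out rather than close together. *GIGANTEA-A* was at 128 CPM in replicate 1 against 146 to 176 CPM, and *GIGANTEA-B* at 154 against 178 to 214 CPM, with replicate 2 the highest. Replicate 1 was also the library with 74 reads of the floral organ gene *TaAG-A2*, whose part in this was not tested.

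*GIGANTEA* levels differed between the *phyB*-null and *phyC*-null libraries, though neither homeolog passed against WT by edgeR. DESeq2 called *GIGANTEA-A* against both mutants and *GIGANTEA-B* against *phyC*-null. The sum of the homeologs also passed for WT against each mutant by the exact permutation test (adjusted p = 0.0343). The edgeR calls between the mutants were lost in most fits with a library left out, with limma and with library size alone. For *phyB*-null over *phyC*-null the log2 difference was 0.85 for *GIGANTEA-A* and 0.84 for *GIGANTEA-B* by edgeR's quasi-likelihood test, and 0.82 for their sum by the exact permutation test (adjusted p = 0.0343). WT lay between the mutants in all 3 measures.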

How the results depend on the processing

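No member's difference changed direction under any alternative run. *PPD-B1* kept both calls against WT in all 18 alternatives of each comparison, with log2 differences of 3.001 to 4.76 and 2.50 to 3.43. In the simulation, pooled over the 200 changed features, 42%, 15% and 16% of 2-fold changes were recovered in the 3 comparisons, so small differences can be missed. Far more features were called in the data for WT against *phyB*-null (8595) than were changed there, so recovery in the data may differ. How recovery varies with depth or with the level of a feature was not tested.

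With limma on log2(TPM + 1) and log2(TPM + 0.1), the *PPD-A1* difference of WT over *phyB*-null was 0.70 and 0.88 and did not pass, nor did those of *phyB*-null over *phyC*-null for *GIGANTEA-A* (0.78 and 0.82) and *GIGANTEA-B* (0.75 and 0.80). Library size alone gave 0.80 and 0.79 for these *GIGANTEA* differences, also short of the threshold; the cause was not tested. DESeq2 called *GIGANTEA-A* at -0.39 (WT over *phyB*-null) and 0.46 (WT over *phyC*-null), *GIGANTEA-B* at 0.52 (WT over *phyC*-null) and *PPD-B1* at -1.33 (*phyB*-null over *phyC*-null), the last also when DESeq2 and the exact test of edgeR both had to pass (-1.33) and with all 12 libraries in one fit (-1.34). Leaving out a library, log2 differences ranged from 0.66 to 0.95 for *PPD-A1* and from -0.46 to -0.32 for *GIGANTEA-A* (WT over *phyB*-null), and between the mutants from -1.57 to -1.13 for *PPD-B1*, 0.78 to 0.92 for *GIGANTEA-A* and 0.76 to 0.91 for *GIGANTEA-B*. The *PPD1* sum between the mutants passed on TMM-scaled CPM (-0.78, exact permutation, adjusted p = 0.0286). With a library left out, ratios and sums cannot reach p of 0.05 and were read as values without a test, all of which moved by less than a replicate SD.

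Replicate numbers did not pair the libraries: same-numbered libraries deviated together with correlations of -0.532 to 0.55, above 0.1 in 5 of 12 pairs. With the replicate number as a block, *GIGANTEA-B* between the mutants was 0.83 (adjusted p = 0.0116), no other call on a member changed, and the features called numbered 5388 against *phyB*-null, 918 against *phyC*-null and 1826 between the mutants.

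The number of features called, 8595 for WT against *phyB*-null, was 12446 with DESeq2, 10756 with both tools, 5681 and 4683 with limma and 5270 to 8437 with a library left out, the lowest without *phyB*-null replicate 3 and then WT replicate 2 (5573). For *phyC*-null, 574 became 2468 with DESeq2, 2003 with both tools, 907 with all 12 libraries, 272 with high confidence models alone, 273 and 353 with limma, and 329 to 958 with a library left out: 355, 351 and 329 without WT replicate 1, 2 or 3, and 958 without *phyC*-null replicate 3. Between the mutants, 2462 became 6039, 4726 and 3967 with DESeq2, both tools and all 12 libraries, 1236 and 1167 with limma, and 1063 to 3537 with a library left out: 3537 without *phyC*-null replicate 3, 1063 to 1613 without any 1 of the *phyB*-null libraries, and 1545 and 1483 without *phyC*-null replicate 1 or 2. Applied after seeing the data to the list genes and the truncated model, the same alternatives left 614 results on their side of the threshold, took 45 calls away, added 5 and reversed 1 difference: the truncated model between the mutants, at -0.064 without *phyB*-null replicate 1 (range with a library left out -0.064 to 1.29). Outside the fits with a library left out, limma lost the calls between the mutants for *APRR3-like (4A)*, *APRR3-like (4B)*, *LUX (3A)*, *CDF1c-A*, *CDF1d/e-B* and the *LHY-annotated MYB (6B)*, and on log2(TPM + 1) those of *FT-A1* against both mutants and *FT-B1* against *phyC*-null. The replicate block lost *CDF1d/e-B* and the *LHY-annotated MYB (6B)* between the mutants, and library size alone lost *CDF1d/e-B* there.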
